A study of Mus musculus with 10 samples.

Results

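The interferon-stimulated effector genes of MC3T3-E1 cells, a clonal mouse pre-osteoblast line, were followed through 5 stages of osteoblast differentiation. The members were 44 genes given by name, each known as an interferon-induced antiviral or immune effector, and they were matched by Ensembl gene identifier in a count table of 40620 genes. RNA was sequenced from subconfluent and confluent cells, both kept in growth medium (αMEM with iFBS), and from cells after 24 h, 14 d and 21 d of differentiation treatment, in which ascorbic acid and β-glycerophosphate were added. Each stage had 2 libraries, replicates A and B, with no genetic change or other agent named in the labels. The labels do not say that A and B came from separate cultures, so the p-values measure only the spread between libraries, which may be technical. Levels are given as RPKM, in which the reads of a gene are divided by its length and by the reads of the library. Of the 44 members, 42 had enough counts to be tested in edgeR. The others were Oasl1, with at most 17 counts in a library, and Rsad2 (viperin), with 0 counts in 9 libraries and 3 counts in 21 d B.

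Depth ran from 44736156 to 162939333 counts on genes per library, so that 3 counts, the limit that a count of 0 allows, corresponded to between 0.0184 and 0.0671 CPM, for counting error only. Runx2, the master regulator of osteoblasts, was at 17.6 to 34.2 RPKM in the 10 libraries, and Bglap (osteocalcin) ran from 1.11 RPKM in subconfluent A to 1197 RPKM in 14 d A. The column names give one pair of index sequences to subconfluent, confluent and 24 h libraries and another pair to 14 d and 21 d libraries. A comparison across these sets therefore cannot tell stage and library set apart, whereas 21 d against 14 d lies within 1 set. In the column names, however, 14 d A and 21 d A share an index sequence and a lane number, and no run is named. Whether 14 d and 21 d were sequenced in the same run is thus not known. Stage and run may not be separable in this comparison either. The 24 h replicates differed most: over the 29 members with at least 10 counts in every library, the median absolute log2 ratio of A to B was 0.41 at 24 h, while at no other stage did it exceed 0.19. Over all genes with such counts it was 0.37 at 24 h and at most 0.14 at the other stages, so this spread was shared by the whole libraries.

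Interferons are secreted proteins that cells release on sensing foreign or misplaced nucleic acid. Type I interferons bind the receptor chains Ifnar1 and Ifnar2, whose kinases activate a complex that includes Stat2 and Irf9, and this complex binds interferon response elements near the starts of its target genes. The induced effectors block translation, degrade RNA, trap virus particles, conjugate the ubiquitin-like protein Isg15 or raise the level of the signalling proteins themselves. In bone, interferon signalling is best known for restraining osteoclast formation.

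The members were mostly low through 14 d and higher at 21 d. In 21 d against 14 d, 15 of the 42 tested members passed the threshold as higher (edgeR quasi-likelihood test, Benjamini-Hochberg adjusted p under 0.05, changed over 2-fold) and 0 as lower, where 1.52% of the 20808 genes tested were called higher and 2.45% lower. At any fold change, 21 members were higher and 2 lower, beside 3.77% and 5.95% of all genes. The members were chosen with earlier results of these data known, so these shares are not an independent test. The median log2 fold change of the tested members was 0.99, and that of all genes tested was -0.03. Both 21 d libraries lay above both 14 d libraries in 36 members (30.7% of all genes) and below them in 3 (36.5% of all genes), and they overlapped in 3. The members called higher were Ifi44, Usp18, Slfn2, Oasl2, Mx2, Ifit1, Ifit3b, Gbp3, Ifit3, Rtp4, Isg15, Trim30a, Igtp, Ifi27 and Parp14, in order of fold change, from rank 32 (Ifi44) to rank 316 (Parp14) of the 317 genes called higher.

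The count of calls depended on having both replicates of each stage. With 1 library left out, the lone sample of its stage is assumed to vary like the other stages. In each of these 4 fits fewer members were called than with all libraries, and so were fewer of all genes tested. The members' median log2 fold change was 0.94 without 14 d A, 1.05 without 14 d B, 1.045 without 21 d A and 0.97 without 21 d B. Ifi44, Usp18, Oasl2, Ifit1, Rtp4 and Isg15 were called in each of these 4 fits, with adjusted p-values of at most 0.040. RNA here came from whole cultures, in which a change in the number of cells of a type and a change in RNA per cell cannot be told apart.

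**Figure D1:**
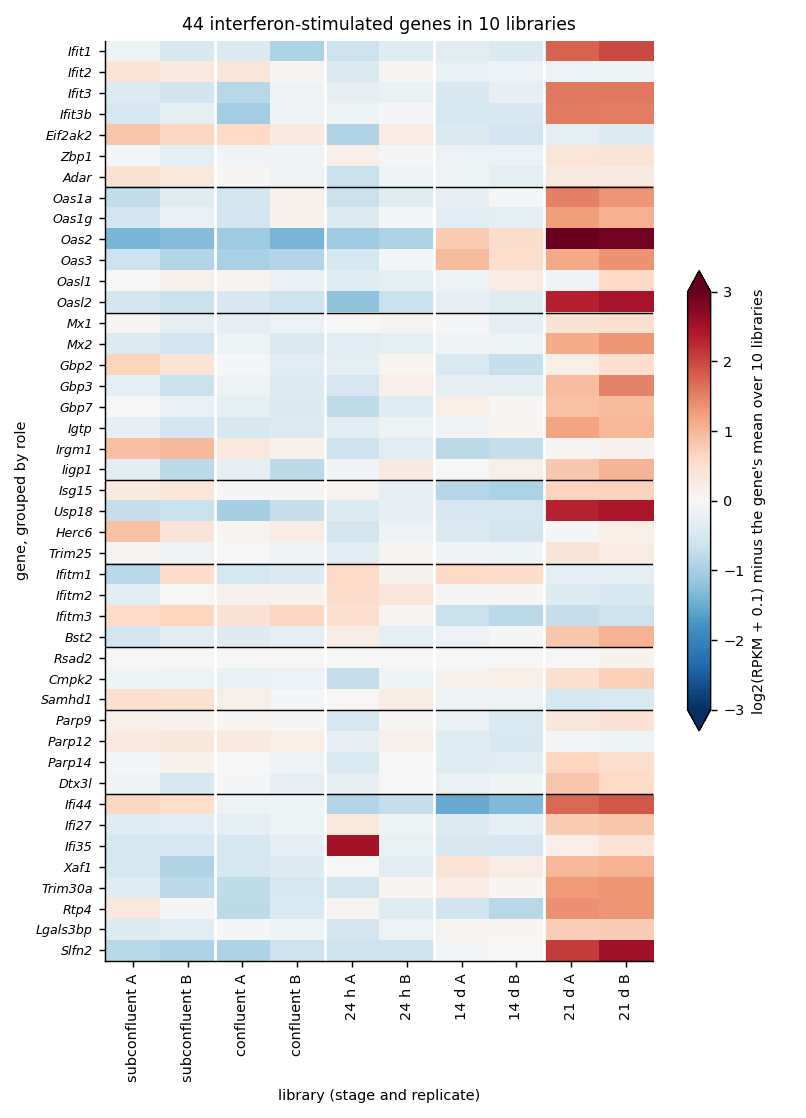
Level of the 44 members in each of the 10 libraries, as log2(RPKM + 0.1) minus the gene's mean over the 10 libraries, with genes (rows) grouped by role and libraries (columns) ordered by stage and replicate. The darkest 21 d columns are those of Oas2, Oasl2, Usp18 and Slfn2, and the single dark cell at 24 h is Ifi35 in replicate A.

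**Figure D2:**
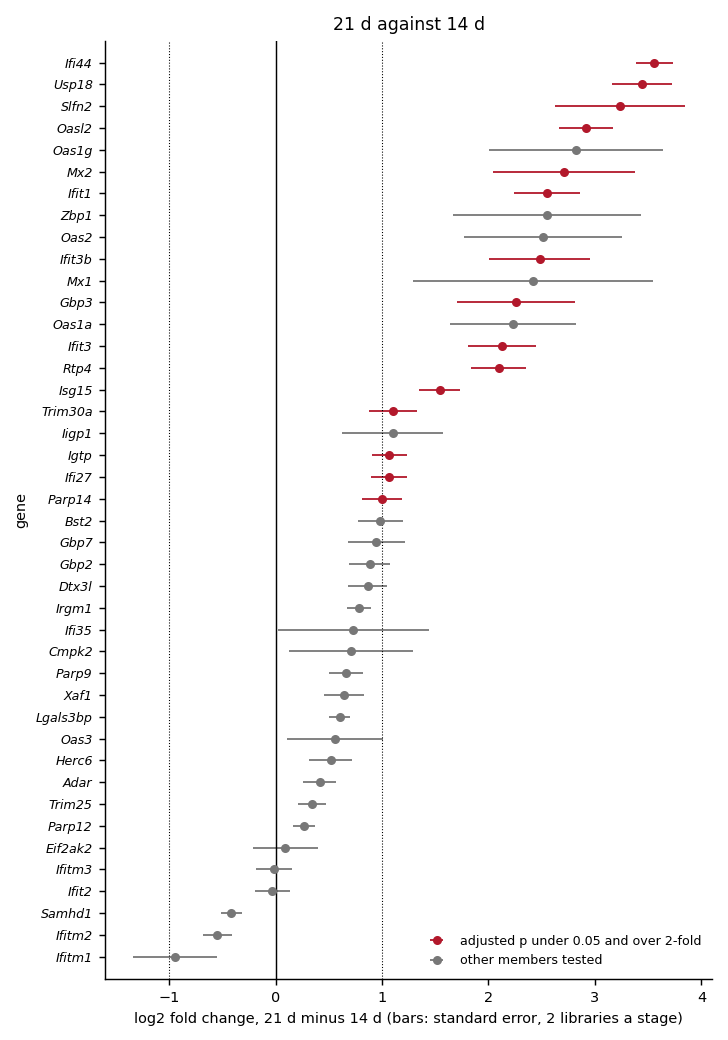
Fitted log2 fold change at 21 d against 14 d for the 42 tested members, with bars of 1 standard error (2 libraries a stage) and dotted lines at 2-fold. The 15 called members, in red, run from 1.002 (Parp14) to 3.56 (Ifi44), and 5 estimates lie below 0.

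The starts of these genes were inspected for the elements that the interferon-activated factors bind. A promoter window of 250 bases before to 50 bases after an annotated start was given by RefSeq (GRCm38.p6) for 34 of the 44 members, and the other members were Zbp1, Oas2, Mx1, Mx2, Iigp1, Usp18, Parp9, Parp14, Ifi27 and Rtp4. The core of the interferon response element, GAAA, any 2 bases and again GAAA on either strand, was held by 18 of these 34 members (52.9%), beside 3.99% of the 27025 genes with a window and 3.73% of the tested genes with one. It was held by 7 of the 10 called members with a window, by 11 of the 24 other members, and by 14 of 199 other genes that were called higher at 21 d (7.04%). The gamma-activated element, TTCNNNGAA, which reads the same on both strands and can overlap the core by its GAA, was in 10 of 34 members (29.4%) and in 9.55% of all genes. It was held by 1 of the 10 called members with a window and by 9 of the 24 others. A match is a run of letters, and binding was not measured here.

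The stretches around the matches are shown for the 7 called members that hold the core, because their spacing and orientation can be compared directly. Each is written in the direction of the gene, with every match in capitals, on GRCm38.p6 at chr4:156200855-156200916 (Isg15, minus strand), chr19:34640765-34640833 (Ifit1, plus), chr19:34583353-34583436 (Ifit3, plus), chr19:34607749-34607832 (Ifit3b, plus), chr3:142559979-142560034 (Gbp3, plus), chr11:58199502-58199551 (Igtp, plus) and chr7:104465200-104465249 (Trim30a, minus). Where TTTC, 2 bases and TTTC are in capitals, the core lies on the opposite strand.
Isg15: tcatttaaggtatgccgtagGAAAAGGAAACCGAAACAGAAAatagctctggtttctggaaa
Ifit1: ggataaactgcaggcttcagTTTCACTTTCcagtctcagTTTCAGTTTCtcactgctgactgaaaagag
Ifit3: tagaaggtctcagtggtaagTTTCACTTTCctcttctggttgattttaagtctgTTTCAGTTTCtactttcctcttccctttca
Ifit3b: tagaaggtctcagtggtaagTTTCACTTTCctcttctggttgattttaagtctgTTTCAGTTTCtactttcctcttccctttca
Gbp3: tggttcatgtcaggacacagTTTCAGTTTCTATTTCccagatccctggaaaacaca
Igtp: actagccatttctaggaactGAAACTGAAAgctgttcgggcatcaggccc
Trim30a: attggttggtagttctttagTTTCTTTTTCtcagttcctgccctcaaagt

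In Isg15, 3 overlapping matches at 6-base spacing ran from base -78 to base -57 relative to the start, and in Gbp3 2 overlapping matches ran from -45 to -30. Ifit1, Ifit3 and Ifit3b each had 2 separate matches on the opposite strand. The stretches of Ifit3 and Ifit3b were identical over their 84 bases. Trim30a had a match in each of its 2 windows, at -36 to -27 of one start and at 2 to 11 of the other, and the first is shown. Igtp had 1 match, at -34 to -25.

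Ifi44, Oasl2 and Slfn2 were called with some of the largest folds and held no match to the core in their windows. The search allowed only the fixed spacing of the core. In Ifi44, the run tttcagttttcgtttc holds TTTC repeatedly at other spacings, which the search did not count. The lack of a match therefore does not show that an interferon response element is absent. The 150 bases before their starts are shown, at chr3:151749911-151750060 (Ifi44, minus strand), chr5:114896784-114896933 (Oasl2, plus) and chr11:83064962-83065111 (Slfn2, plus).
Ifi44: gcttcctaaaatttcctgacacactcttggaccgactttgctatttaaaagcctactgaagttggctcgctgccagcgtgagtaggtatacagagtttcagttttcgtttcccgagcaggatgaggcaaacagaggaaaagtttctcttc
Oasl2: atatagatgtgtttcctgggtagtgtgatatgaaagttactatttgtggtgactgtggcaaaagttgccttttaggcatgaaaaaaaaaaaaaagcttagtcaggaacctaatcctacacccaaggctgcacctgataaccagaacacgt
Slfn2: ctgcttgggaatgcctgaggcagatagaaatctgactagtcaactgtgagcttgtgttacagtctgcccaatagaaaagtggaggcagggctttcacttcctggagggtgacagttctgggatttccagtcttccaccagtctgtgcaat

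**Figure D3:**
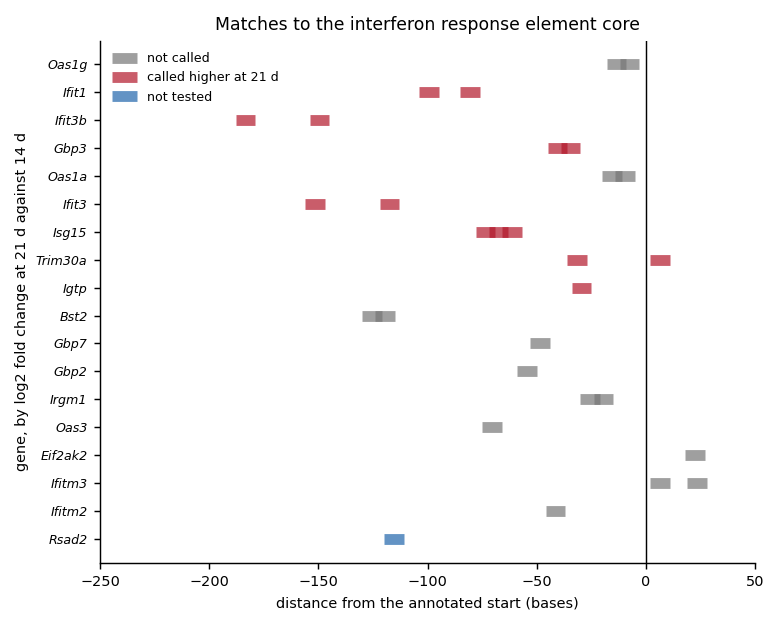
Matches to the interferon response element core (bars, to scale) by distance in bases from the annotated start, for the 18 members that hold 1 or more, ordered by their log2 fold change at 21 d against 14 d. The 7 members called higher at 21 d are in red, members not called in grey and the untested Rsad2 in blue.

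Among the proteins that bind foreign RNA or stop its translation, 3 of 7 members were called higher at 21 d. Ifit1, which binds viral RNA that lacks the host's cap methylation, was at 0.293 and 0.263 RPKM in 14 d A and B and at 1.58 and 1.86 RPKM in 21 d A and B. Its rise was 2.55 ± 0.31 on the log2 scale (SE, edgeR adjusted p = 0.0027). Ifit3, a partner of Ifit1, was at 0.370 and 0.452 RPKM at 14 d and at 1.87 and 1.89 RPKM at 21 d (log2 fold change 2.12 ± 0.32, edgeR adjusted p = 0.0067). Both genes had been near their 14 d level at each earlier stage, with no library of either above 0.505 RPKM before 21 d. Ifit3b was at 0.172 and 0.182 RPKM at 14 d and at 1.04 and 1.04 RPKM at 21 d (log2 fold change 2.48 ± 0.47, edgeR adjusted p = 0.017). Ifit3 and Ifit3b share 50.8% and 44.6% of their distinct 51-base words, the read length, with each other or another gene, so their separate counts are uncertain. Adar, Gbp7, Herc6, Rtp4 and Ifi35 share between 10.3% and 14.3%. Ifit3b was not called without any one of the 4 libraries (adjusted p 0.088 to 0.14), and Ifit3 was not called without 14 d A (adjusted p = 0.074).

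Ifit2 lies in the same cluster on chromosome 19 (GRCm38, 34550694-34576419, beside Ifit3 at 34583531-34588731) and had another course. It was at 4.69 and 4.33 RPKM in subconfluent cells, at 2.997 and 3.07 RPKM at 14 d and at 3.07 and 3.18 RPKM at 21 d, where its libraries overlapped those of 14 d (log2 fold change -0.03 ± 0.16, edgeR adjusted p = 0.96). Eif2ak2, the kinase PKR that halts translation on binding double-stranded RNA, was highest in subconfluent cells (13.0 and 11.3 RPKM) and was at 5.33 and 4.81 RPKM at 14 d and 5.92 and 5.46 RPKM at 21 d, with a log2 fold change of 0.09 ± 0.30. The RNA-editing enzyme Adar moved by 0.42 ± 0.15 (edgeR adjusted p = 0.15). Zbp1, a sensor of Z-form nucleic acid, had 3 and 1 counts at 14 d and 7 and 17 counts at 21 d, a difference that did not pass the test (adjusted p = 0.13).

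The oligoadenylate synthetases make a short adenylate chain that activates RNase L, and their relatives Oasl1 and Oasl2 carry the same fold. Oasl2, which shares 0.108% of its 51-base words with other genes, was called: it stood at 0.406 and 0.369 RPKM at 14 d and at 2.94 and 3.22 RPKM at 21 d, a log2 fold change of 2.91 ± 0.25 (edgeR adjusted p = 0.00076). Before 14 d its libraries lay between 0.160 and 0.333 RPKM. Oas2 went from almost no counts to a clear level over the course, with 1 and 1 counts in subconfluent cells, 4 and 0 in confluent cells, 10 and 13 at 24 h, 138 and 42 at 14 d and 303 and 658 at 21 d. In RPKM this was 0.345 and 0.287 at 14 d and 1.95 and 1.85 at 21 d, with no overlap, but the fitted change of 2.51 ± 0.74 had an edgeR adjusted p of 0.082. It passed the threshold in 5 of 15 alternative settings, and both 21 d libraries were above the other 8.

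Oas1a stood at 0.0828 and 0.113 RPKM at 14 d and at 0.517 and 0.439 RPKM at 21 d (log2 fold change 2.23 ± 0.59, edgeR adjusted p = 0.059), and Oas1g at 0.0333 and 0.0390 and at 0.294 and 0.246 RPKM (2.83 ± 0.82, adjusted p = 0.078). Neither passed, and since 57.0% of the 51-base words of Oas1a occur in another gene, mainly Oas1g, their values are uncertain. Oas3 had another course: its 6 libraries before 14 d lay between 0.0113 and 0.114 RPKM and the 14 d libraries at 0.320 and 0.215 RPKM. This step crosses the library sets, so stage and set cannot be told apart. The 21 d libraries were at 0.378 and 0.453 RPKM (log2 fold change 0.56 ± 0.45 against 14 d, edgeR adjusted p = 0.55).

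**Figure D4:**
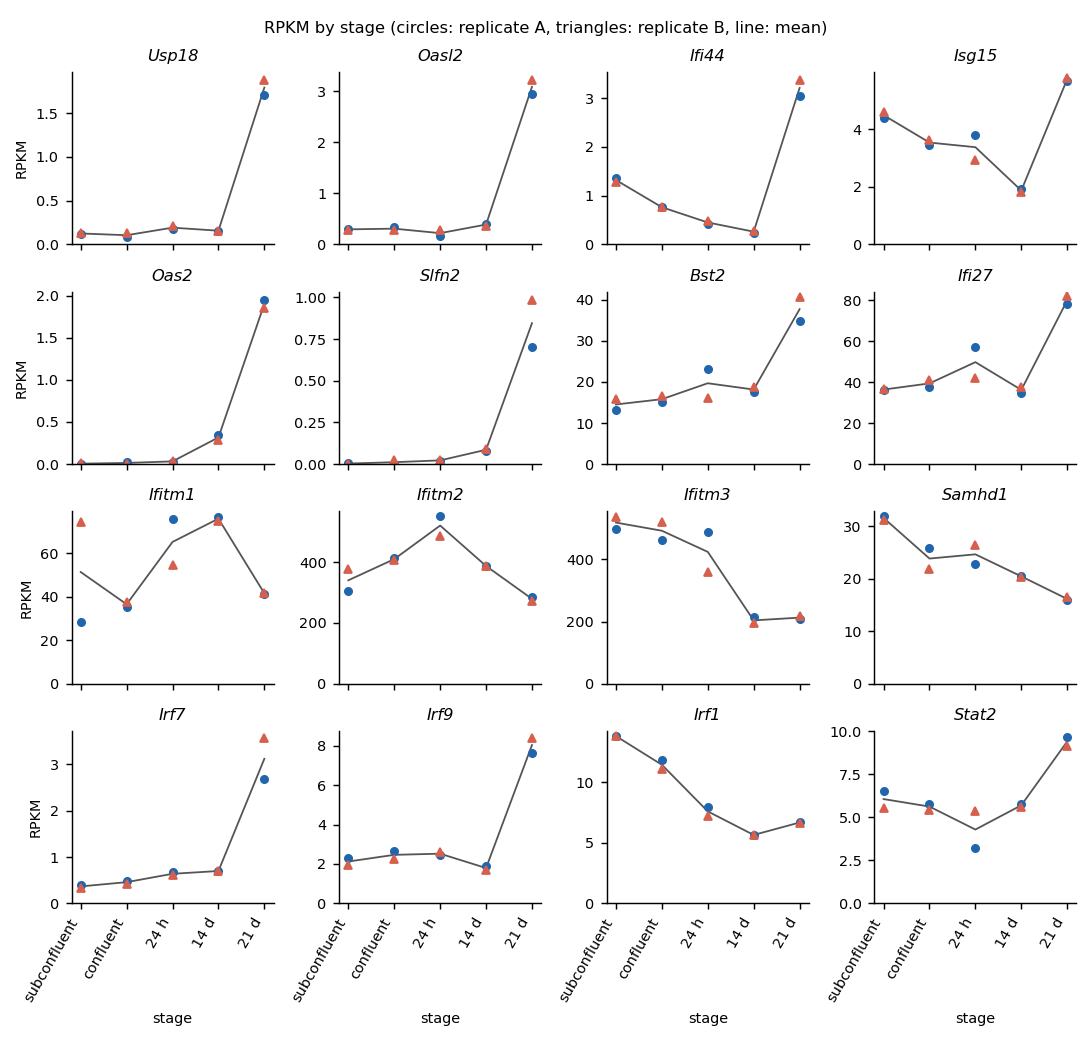
RPKM in each library at the 5 stages for 12 members and for the transcription factors Irf7, Irf9, Irf1 and Stat2, with circles for replicate A, triangles for replicate B and a line through the stage means; each vertical axis starts at 0 and has its own scale. Usp18, Oasl2, Oas2, Slfn2, Irf7 and Irf9 have their highest values at 21 d, Ifi44 and Isg15 are lowest at 14 d, and Ifitm3 and Samhd1 are highest in subconfluent cells.

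Among the GTPases that attack virus particles or the vacuoles of parasites, 3 of 8 members were called and all 8 fitted changes were above 0. Mx2, annotated as a polymorphic pseudogene in this genome, had 12 and 4 counts at 14 d and 28 and 78 at 21 d, or 0.0371 and 0.0337 RPKM and 0.222 and 0.271 RPKM (log2 fold change 2.71 ± 0.67, edgeR adjusted p = 0.046). Gbp3, a guanylate-binding protein, was at 0.0827 and 0.0846 RPKM at 14 d and at 0.319 and 0.519 RPKM at 21 d (2.26 ± 0.56, adjusted p = 0.046). Both stood just inside the threshold, and with any 1 of the 4 libraries left out their adjusted p-values were 0.17 to 0.25 and 0.11 to 0.25. Igtp, an immunity-related GTPase, was at 1.69 and 1.88 RPKM at 14 d and at 4.18 and 3.71 RPKM at 21 d (1.07 ± 0.17, edgeR adjusted p = 0.0076), and was called without 21 d B but not without 14 d A, 14 d B or 21 d A (adjusted p at most 0.083, log2 fold change at least 0.97). Igtp overlaps exons of Irgm2 and shares 11.6% of its 51-base words with other genes.

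Gbp2 and Irgm1 passed the adjusted p but not 2-fold. Irgm1, which steers autophagy around parasites, stood at 1.70 and 1.80 RPKM at 14 d and 3.09 and 3.23 RPKM at 21 d (log2 fold change 0.78 ± 0.11, edgeR adjusted p = 0.0051). Its earlier course was downward, from 5.70 and 5.99 RPKM in subconfluent cells through 3.76 and 3.30 RPKM at confluence to 1.91 and 2.34 RPKM at 24 h. Gbp2 was at 1.61 and 1.35 RPKM at 14 d and 2.53 and 3.20 RPKM at 21 d (0.88 ± 0.19, adjusted p = 0.031). Gbp7 (0.95 ± 0.27, adjusted p = 0.073), Iigp1 (1.10 ± 0.47, adjusted p = 0.22) and Mx1 (2.42 ± 1.13, adjusted p = 0.25), which had 6 and 0 counts at 14 d and 8 and 21 at 21 d, did not pass.

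In the Isg15 system, the modifier and its protease were called. Usp18, which removes Isg15 from its targets and also dampens the type I receptor, was at 0.158 and 0.155 RPKM at 14 d and at 1.71 and 1.88 RPKM at 21 d, a rise of 3.44 ± 0.28 (edgeR adjusted p = 0.00068). Before 14 d no library exceeded 0.209 RPKM. Isg15 itself was at 1.93 and 1.81 RPKM at 14 d and at 5.68 and 5.79 RPKM at 21 d, a rise of 1.54 ± 0.19 (edgeR adjusted p = 0.0030). In contrast to Usp18, Isg15 was already at 4.39 and 4.58 RPKM in subconfluent cells, and its 21 d mean was 1.28 times the subconfluent mean where that of Usp18 was 14.4 times. Herc6, the mouse ligase for Isg15 (0.52 ± 0.20, adjusted p = 0.17), and Trim25 (0.34 ± 0.13, adjusted p = 0.16), a ubiquitin ligase of RNA sensing, did not pass.

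The membrane restriction factors include the most abundant members, and 0 of 4 were called at 21 d against 14 d, a count near the share of all genes. Ifitm2 and Ifitm3, which block the fusion of viral and cell membranes, had their highest stage means at 24 h (Ifitm2, 520 ± 46 RPKM, SD, n = 2) and in subconfluent cells (Ifitm3, 518 ± 27 RPKM). Ifitm3 was at 213 and 194 RPKM at 14 d and 208 and 217 RPKM at 21 d, overlapping (log2 fold change -0.01 ± 0.17, edgeR adjusted p = 0.99). Ifitm2 was at 387 and 387 RPKM at 14 d and at 285 and 273 RPKM at 21 d, lower by less than 2-fold (-0.55 ± 0.13, adjusted p = 0.046), and 48.3% of its 51-base words occur in other genes, among them pseudogenes. Ifitm1 was at 76.8 and 74.9 RPKM at 14 d and 41.2 and 41.8 RPKM at 21 d (-0.94 ± 0.40, adjusted p = 0.20), and its subconfluent replicates differed widely, at 28.4 and 74.2 RPKM. Bst2 (tetherin), which holds budding virus to the cell surface, went the other way, from 17.5 and 18.8 RPKM to 34.8 and 40.6 RPKM, a fitted change of 0.98 ± 0.21 (edgeR adjusted p = 0.029) that lay just under 2-fold and passed it in 7 of 16 alternative settings.

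Of the genes of nucleotide metabolism, Samhd1, which depletes the deoxynucleotides that viruses need, declined from 32.0 and 31.1 RPKM in subconfluent cells to 20.5 and 20.4 RPKM at 14 d and 15.9 and 16.4 RPKM at 21 d. The last step was -0.41 ± 0.10 (edgeR adjusted p = 0.044), less than 2-fold. Cmpk2, a mitochondrial nucleotide kinase whose gene adjoins Rsad2, was at 0.104 and 0.114 RPKM at 14 d and 0.161 and 0.211 RPKM at 21 d (0.71 ± 0.58, adjusted p = 0.56). Among the ADP-ribosyltransferases, Parp14 was called with a change of 1.002 ± 0.19 (edgeR adjusted p = 0.016), from 0.384 and 0.404 to 0.870 and 0.793 RPKM, which placed it at the edge of the 2-fold threshold, and it was not called without any one library (adjusted p 0.075 to 0.13). Parp9 (0.66 ± 0.16, adjusted p = 0.045) and its partner Dtx3l (0.87 ± 0.18, adjusted p = 0.027) passed the adjusted p only. These neighbours overlap on opposite strands, and whether the counting used strand is not given in the sources used here. Parp12 was at 9.57 and 8.71 RPKM at 14 d and 11.8 and 11.3 RPKM at 21 d (0.27 ± 0.11, adjusted p = 0.18).

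The remaining 8 members held 5 of the calls. Ifi44 had the largest fold change of all members, from 0.238 and 0.284 RPKM at 14 d to 3.04 and 3.38 RPKM at 21 d (3.56 ± 0.17, edgeR adjusted p = 0.00019). It had first declined, from 1.37 and 1.27 RPKM in subconfluent cells through 0.758 and 0.768 RPKM at confluence to 0.421 and 0.479 RPKM at 24 h, so that the 14 d libraries were the lowest of the 10. Rtp4, a chaperone of taste and opioid receptors, was at 1.11 and 0.926 RPKM at 14 d and 4.67 and 4.51 RPKM at 21 d (2.09 ± 0.26, edgeR adjusted p = 0.0029). Slfn2, a Schlafen protein of lymphocyte quiescence, had at most 4 counts in any library before 14 d, 12 and 5 counts at 14 d and 41 and 131 at 21 d (3.23 ± 0.61, edgeR adjusted p = 0.017). Trim30a was at 2.16 and 1.88 RPKM at 14 d and 4.48 and 4.63 RPKM at 21 d (1.10 ± 0.22, edgeR adjusted p = 0.023). None of its earlier libraries exceeded 1.87 RPKM. Ifi27 was the most abundant called member, at 34.6 and 37.9 RPKM at 14 d and 78.1 and 81.9 RPKM at 21 d (1.07 ± 0.17, edgeR adjusted p = 0.0082). Slfn2, Trim30a and Ifi27 were not called without any one of the 4 libraries, with adjusted p-values of 0.076 to 0.15, 0.12 to 0.18 and 0.053 to 0.080.

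Lgals3bp, a secreted glycoprotein, was at 23.8 and 23.5 RPKM at 14 d and 37.7 and 38.0 RPKM at 21 d, higher by less than 2-fold (0.60 ± 0.10, edgeR adjusted p = 0.011). Xaf1, which binds the apoptosis inhibitor XIAP, was at 2.56 and 2.22 RPKM and at 3.86 and 4.01 RPKM (0.65 ± 0.19, adjusted p = 0.077). Ifi35 was at 9.82 and 9.64 RPKM at 14 d and 15.8 and 18.2 RPKM at 21 d (0.73 ± 0.71, edgeR adjusted p = 0.63). Its 24 h replicates were at 77.5 and 11.7 RPKM, and in a fit without the 24 h samples its adjusted p was 0.0039.

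The median change was larger in classes of lower level, though the classes overlapped. The largest fold of all members (Ifi44, 3.56) was in the class between 1 and 10 RPKM. The 18 tested members with a mean under 1 RPKM over the 10 libraries had a median log2 fold change of 2.45 at 21 d against 14 d, and 9 were called. The 15 members between 1 and 10 RPKM had a median of 0.78, with 5 called, and the 9 members at 10 RPKM or more a median of 0.27, with 1 called. Over all genes tested, the medians in these classes were 0.13, 0.01 and -0.10, and 2.31%, 1.6% and 0.958% were called higher. The median over the 44 members of the stage mean was 1.17 RPKM in subconfluent cells, 1.12 at confluence, 1.39 at 24 h, 1.13 at 14 d and 2.97 at 21 d. Even at 21 d, 14 members stayed under 1 RPKM.

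The highest stage mean fell at 21 d for 32 of the 44 members, in subconfluent cells for 9, at 24 h for 2 (Ifitm2 and Ifi35), at 14 d for 1 (Ifitm1) and at confluence for 0. The lowest fell at 14 d for 15 and in subconfluent cells for 14. The 32 include the untested Oasl1 and Rsad2. The 14 include Rsad2, which was at 0 RPKM at every stage before 21 d and so is placed there by a tie. The shares of all genes for these stages were not counted. In 30 tested members both 21 d libraries lay above the other 8 libraries, where 16.7% of the tested genes did so.

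In the 2 comparisons of early stages 0 members were called, a count near the background of all genes. In confluent against subconfluent cells 0 of 42 tested members were called by edgeR in either direction, beside 1% of genes called higher and 0.423% lower, and 8 members had an unadjusted p under 0.05, as did 17.1% of all genes. Irgm1 (-0.75 ± 0.11, adjusted p = 0.014) and Ifi44 (-0.82 ± 0.16, adjusted p = 0.040) were lower by less than 2-fold. DESeq2 also called 0 members. At 24 h of differentiation treatment against confluent cells 0 members were called, beside 1.76% of genes higher and 0.365% lower, with 10 members at an unadjusted p under 0.05 (23.3% of all genes) and 2 called by DESeq2, Oas3 and Ifi35. Irgm1 was again lower (-0.65 ± 0.11, edgeR adjusted p = 0.020). Without 1 library the calls at 24 h were 1 without confluent A, 1 without 24 h A, 4 without 24 h B and 0 without confluent B.

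Between confluence and 14 d, a comparison that crosses the library sets, 6 of 42 tested members were called higher and 2 lower. These counts stand near the background of 9.15% and 3.85% of all genes, and the median of 0.16 stood beside 0.03 for all genes. Scaled by library size alone, which moves the median of all genes to -0.20, 3 members were called higher and 3 lower, beside 1434 and 1447 genes, and the members' median turned to -0.06. Those called higher were Oas2, Oas3, Slfn2, Ifitm1, Trim30a and Xaf1. Oas3 was higher by 4.21 ± 0.55 (edgeR adjusted p = 0.0014), while Ifitm1 (1.27 ± 0.40), Trim30a (1.04 ± 0.23) and Xaf1 (1.03 ± 0.19) were higher by smaller amounts. For Oas2 and Slfn2, with at most 4 counts in a confluent library, no fold is given, and their edgeR adjusted p-values were 0.0063 and 0.033. Those called lower were Ifitm3 (-1.06 ± 0.17, edgeR adjusted p = 0.0036) and Ifi44 (-1.34 ± 0.16, adjusted p = 0.0011). Isg15 was lower by less than 2-fold (-0.70 ± 0.19, adjusted p = 0.028), as were Irgm1 (-0.80 ± 0.11) and Parp12 (-0.47 ± 0.11). With 1 library left out fewer than these 8 members were called, and fewer of all genes tested. The members' median was then 0.14 without confluent A, 0.28 without confluent B, 0.19 without 14 d A and 0.11 without 14 d B.

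Over the whole course, 21 d against subconfluent cells, 23 members were called higher and 1 lower, beside 16.3% and 11.3% of all genes, with a median of 1.42 beside 0.04. With library size alone the genes called split into 2828 higher and 2951 lower, and the members into 22 and 3. This comparison shares its 21 d libraries with that of 21 d against 14 d and also crosses the library sets. All 5 tested oligoadenylate synthetase genes were called higher, where 1 was called against 14 d. Among them Oasl2 rose by 3.50 ± 0.26 (edgeR adjusted p = 4.0e-05) and Oas3 by 3.81 ± 0.52 (adjusted p = 0.00076). Usp18 rose by 3.96 ± 0.29 (edgeR adjusted p = 3.9e-05), Igtp by 1.66 ± 0.17, Bst2 by 1.498 ± 0.21, Lgals3bp by 1.23 ± 0.10 and Ifi44 by 1.40 ± 0.16. The call lower was Ifitm3 (-1.17 ± 0.17, edgeR adjusted p = 0.0011). Neither Isg15 nor Parp14 was among the calls (Parp14 0.75 ± 0.18, adjusted p = 0.012, under 2-fold).

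**Figure D5:**
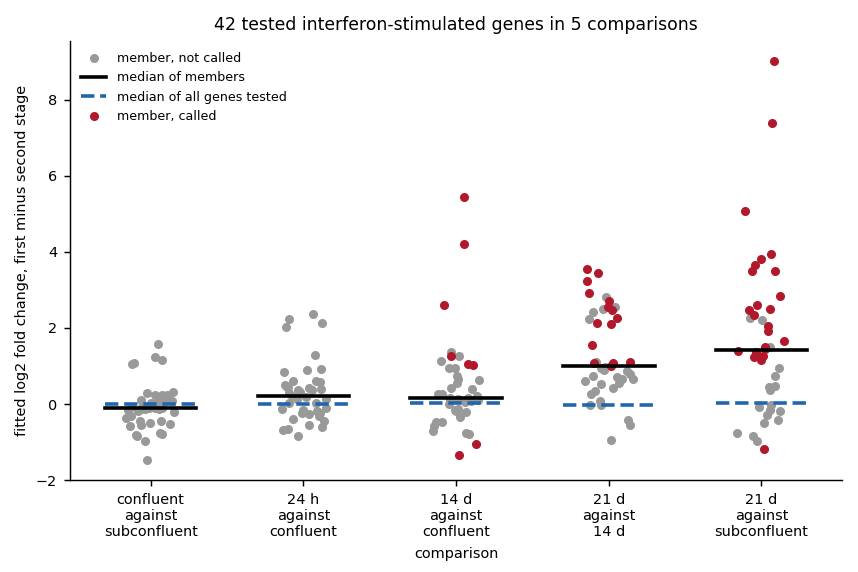
Fitted log2 fold change of the 42 tested members in 5 comparisons (grey: not called; red: called), with the median of the members in black and that of all genes tested in dashed blue. The members' median is 0.99 at 21 d against 14 d and 1.42 at 21 d against subconfluent cells; the top pair of points at the right, Oas2 and Slfn2, had at most 1 count in a subconfluent library, and their size depends on the prior count of the fit.

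The genes upstream of the members were read from lists of the pathway. In 21 d against 14 d, 1.52% of all genes tested were called higher and 2.45% lower, so 0 calls in a short list lies near that share. Of the 10 interferon genes listed none had enough counts to be tested: Ifna2, Ifnk, Ifng and Ifnl3 were at 0 counts in every library, and Ifnb1 had 1 count in 24 h B and 0 elsewhere. Ifnl2 had 115 counts in 24 h A, or 1.94 RPKM, and 0 in the other 9 libraries. Of the receptors and kinases, 0 of 8 tested genes were called at 21 d against 14 d. Ifnar1 was at 6.62 and 6.29 RPKM at 14 d and 7.51 and 7.56 RPKM at 21 d (0.15 ± 0.10, edgeR adjusted p = 0.47), and Ifnar2 at 10.8 and 10.7 and at 13.7 and 12.8 RPKM (0.22 ± 0.10, adjusted p = 0.25).

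Of the transcription factors, 2 of 8 tested genes were called higher, 0 lower, and the median was 0.41. Irf9, the DNA-binding partner of Stat2, was at 1.90 and 1.69 RPKM at 14 d and at 7.65 and 8.41 RPKM at 21 d, a rise of 2.09 ± 0.15 (edgeR adjusted p = 0.00044). Irf7, the factor that amplifies interferon production, was at 0.698 and 0.700 RPKM at 14 d and at 2.68 and 3.56 RPKM at 21 d (2.08 ± 0.21, edgeR adjusted p = 0.0013). Both were called with each library left out in turn. Stat2 (0.65 ± 0.20, adjusted p = 0.087), Irf1 (0.17 ± 0.10, adjusted p = 0.37) and Irf3 (0.13 ± 0.13, adjusted p = 0.64) did not pass.

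Among 9 tested sensors of nucleic acid and their adaptors, 1 was called. Ifih1 (MDA5), which detects long double-stranded RNA, was at 0.226 and 0.152 RPKM at 14 d and 0.438 and 0.514 RPKM at 21 d (1.25 ± 0.25, edgeR adjusted p = 0.022), and was not called without any one library (adjusted p 0.051 to 0.16). Cgas, the sensor of cytosolic DNA, went the other way, from 2.23 and 2.06 to 1.09 and 1.18 RPKM, just under 2-fold (-0.99 ± 0.20, edgeR adjusted p = 0.024). Of the 12 genes of MHC class I presentation 1 was called, their activator Nlrc5, from 0.0570 and 0.0598 RPKM to 0.154 and 0.137 RPKM (1.24 ± 0.25, edgeR adjusted p = 0.024), likewise lost without any one library (adjusted p 0.097 to 0.16). The median of the MHC genes was 0.17. Of 4 enzymes of Isg15 conjugation only Usp18, described above, was called. Of 5 feedback inhibitors 0 were called, a count near the share of all genes.

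Markers of other cells were read beside these results. Of 14 white blood cell markers 8 were tested and 0 were called at 21 d against 14 d. This count lies near the shares over all genes, 1.52% called higher and 2.45% lower. All 8 overlapped between the stages, where 30.7% of all genes lay above and 36.5% below. Ptprc (CD45), Cd3e and Ncr1 were at 0 counts in all 10 libraries, and Adgre1 and Cx3cr1 had at most 1 count. Other markers on the list were present in every library: Lyz2 at 9.81 to 16.1 RPKM, Itgam at 5.003 to 9.86 RPKM, Csf1r at 1.83 to 3.19 RPKM and Cd14 at 1.98 to 2.51 RPKM. The summed level of the list without Tyrobp was 26.6 and 27.9 RPKM at 14 d and 26.5 and 28.1 RPKM at 21 d, and 19.7 to 30.9 RPKM over the 10 libraries. Tyrobp split replicates within a stage, at 0.497 and 214 RPKM at 14 d and 256 and 0.268 RPKM at 21 d. It did so at confluence too, where the list summed to 22.3 RPKM in A and 205 RPKM in B. Without Tyrobp these confluent sums were 22.3 and 26.4 RPKM. Endothelial markers summed to at most 0.107 RPKM and adipocyte markers to at most 1.09 RPKM in a library. Of these, 0 were called of 2 and of 1 tested, also near the share of all genes. Among 8 osteoblast markers, Dmp1 (1.88 ± 0.26, edgeR adjusted p = 0.0044) and Spp1 (2.05 ± 0.20, adjusted p = 0.0010) were called higher at 21 d against 14 d, and Alpl (-1.47 ± 0.12, adjusted p = 0.00064) and Col1a1 (-1.004 ± 0.21, adjusted p = 0.026) lower. The part of these changes in those of the interferon-stimulated genes was not tested.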

How the data were processed

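RNA from MC3T3-E1 cells was sequenced as 51 bp paired-end reads. The submitters' processing notes name TopHat2 2.0.9, FastQC, R 3.0.1 and mm10, and the counting tool and its use of strand are not given in the sources used here. The authors deposited whole-number read counts per Ensembl gene without normalization. The authors also deposited RPKM values, made with a lower number of reads than the counts sum to (counts 1.443 to 1.601 times it). For 14 d A and 21 d B, sequenced in 2 lanes, the authors' merged column was used, which differs from the sum of the lanes for 13526 and 13582 genes. Symbols and coordinates came from GENCODE vM21 (GRCm38) for 39547 of 40620 identifiers.

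Counts were tested with edgeR 4.0.16 in R 4.3.3: filterByExpr over the 5 stages (20808 genes kept), TMM, 1 quasi-likelihood model of 5 groups over all 10 libraries, 5 comparisons, and Benjamini-Hochberg adjustment over all genes tested. A gene was called at an adjusted p under 0.05 and over 2-fold. Standard errors are the log2 fold change over the root of the F statistic. The pipeline was tested on simulated data. Tools for tables were pandas 2.3.3 and Python 3.11.15.

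The 44 members and the 11 other gene lists were chosen with earlier results of these data known. Named are all members called at 21 d against 14 d, members of 20 RPKM or more in a stage mean, members of the other lists called in that comparison, and Stat2, Irf1, Irf3, Irf7, Irf9, Ifnar1, Ifnar2 and Ifnb1; other members are given with shorter values. A few genes that this rule or the lists hold are not reported here. Promoters are shown for called members with the response element core and for a few without. Alternatives were library size alone and the factors of DESeq2 or the upper quartile as scalings; no filter on low counts, or a minimum of 10 in each library; a fit to the 2 stages compared, one without 24 h, and one with the replicate letter as a block; DESeq2 1.42.0; limma-trend (limma 3.58.1) on log2(RPKM + 1) and log2(RPKM + 0.1); other fold thresholds; the sum of the lanes; and each library left out in turn.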

Additional observations from a re-analysis of the deposited data

How the results depend on the processing

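At 21 d against 14 d, where 15 members were called, no named gene turned its direction past the threshold under any alternative. The calls were 23 at any fold change, fewer with 1 library left out, and within 1.5 times of 15 under the other alternatives. The members' median of 0.99 was 0.49 with limma-trend on log2(RPKM + 1), where a pseudocount of 1 shrinks the change of genes under 1 RPKM. In confluent against subconfluent cells the 0 calls became 2 at any fold change. At 24 h against confluent cells the 0 calls became 1 at any fold change and 1 with DESeq2 size factors in edgeR. They became 1 with upper-quartile factors, 2 with DESeq2 and 1 with the sum of the lanes. Leaving out 24 h B raised the calls among the members and among all genes tested. At 14 d against confluent cells the 8 calls became 14 at any fold change, 3 at over 4-fold, 5 with at least 10 counts in every sample, 1 with limma-trend on log2(RPKM + 1), 4 on log2(RPKM + 0.1), and 4 to 6 with 1 library left out. The members' median in that comparison turned from 0.16 to -0.0595 with library size alone, to -0.0045 with limma-trend on log2(RPKM + 1) and to -0.0029 on log2(RPKM + 0.1). At 21 d against subconfluent cells the 24 calls became 14 at over 4-fold, 14 with at least 10 counts in every sample and 12 with limma-trend on log2(RPKM + 1). The members' median there moved from 1.42 to 0.80 with at least 10 counts in every sample, 0.35 with limma-trend at a pseudocount of 1 on RPKM and 1.06 at 0.1. Except where the construction of the alternative shows it (another threshold, fewer samples or fewer genes), the cause was not tested.

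The letters A and B carry no stated pairing. The deviations of same-lettered libraries from their stage means correlated between -0.322 and 0.118 over 13582 genes. Within each library set, the column names give the A libraries the same index sequence and the B libraries another. Whether same-lettered libraries were handled together was not tested. With the letter as a replicate block, 12 members were called at 21 d against 14 d, 0 in confluent against subconfluent cells, 0 at 24 h, 7 at 14 d against confluent cells and 24 at 21 d against subconfluent cells, and 731 genes in place of 826 were called at 21 d against 14 d. By level, 9 of the 18 tested members under 1 RPKM were called, 5 of 15 between 1 and 10 RPKM and 1 of 9 at 10 RPKM or more. Some members with few counts, such as Mx1 and Oas1g, had large fitted changes that did not pass.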
